A study of Homo sapiens with 2 samples.

Results

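The genes described here are CD69 and 7 other genes for surface antigens that leukocytes carry or increase on activation (CD83, CD86, CD44, CD48, CD38, ICAM1 and TFRC), measured in EOL-1 cells with and without Glivec. EOL-1 is a human cell line from an eosinophilic leukaemia in which FIP1L1 is fused to the PDGFRA kinase, and Glivec (imatinib) is an inhibitor of the ABL, KIT and PDGF receptor kinases. The Glivec group was 1 culture given 100 nM of the drug for 4 h, and the untreated group was 1 culture without it. Both were grown in RPMI with serum and washed before RNA was extracted, and each was hybridised to 1 Affymetrix array. The members were the probe sets (sets of short probes that together read 1 transcript) whose only gene symbol in the platform's annotation was one of the 8 names, which gave 29 of 54675 probe sets and 8 of 19775 annotated genes. Other genes were named the same way. The members were chosen from their Glivec and untreated signals on these same arrays, so their values are a description and carry no test.

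CD69 is a C-type lectin-like membrane protein that appears early on activated lymphocytes and on eosinophils exposed to cytokines, and it draws the sphingosine phosphate receptor S1PR1 away from the surface. CD83 and CD86 belong to the immunoglobulin superfamily and are known from mature antigen-presenting cells, where CD86 engages CD28 and CTLA4 on T cells. CD44, the receptor for hyaluronan, CD48, a lipid-anchored ligand of CD244, and ICAM1, the ligand of the beta 2 integrins, serve adhesion, while CD38 is an enzyme that splits NAD outside the cell and TFRC is the transferrin receptor that brings iron into dividing cells.

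Values are MAS5 signals, which summarise the brightness of a probe set on a linear scale. A floor was set at a signal of 13.7, the median of all non-control signals. A gene was measured when its representative probe set exceeded the floor on at least 1 array. The representative was the probe set of highest mean signal, with those named _x_at left aside where a gene had others. Ratios are Glivec over untreated on the log2 scale, so that -1 is 2-fold lower with Glivec. Since each group is 1 array, no difference is checked by a replicate, and precision is limited by the number of arrays. The spread at hand is that among probe sets reading the same gene, and it holds nothing of the variation between cultures. The pooled SD was 0.33 (log2) over 5603 genes that had 2 or more probe sets above the floor on both arrays, from 0.41 in the dimmest of 4 signal classes to 0.27 in the brightest.

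CD69 was the only one of the 7 measured members that differed by 2-fold or more, and it was lower with Glivec. Of all 12705 measured genes, 2.63% were at least 2-fold lower and 3.13% at least 2-fold higher, and among the members 1 was lower and 0 were higher. The counts over all genes depended on scaling, with 398 higher and 334 lower as deposited, 290 and 398 after quantile normalization, 272 and 448 after median centring, 207 and 475 after a loess correction, and 43 and 2484 after scaling to the spike-in probe sets. At 1.5-fold, ICAM1 joined CD69, which made 2 members lower and 0 higher, beside 8.33% and 13.5% of all measured genes. The other members lay between -0.29 and 0.57. The median of the 7 ratios was -0.03, and 0.14 for the 6 without CD69, against 0.10 over all measured genes.

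**Figure D1:**
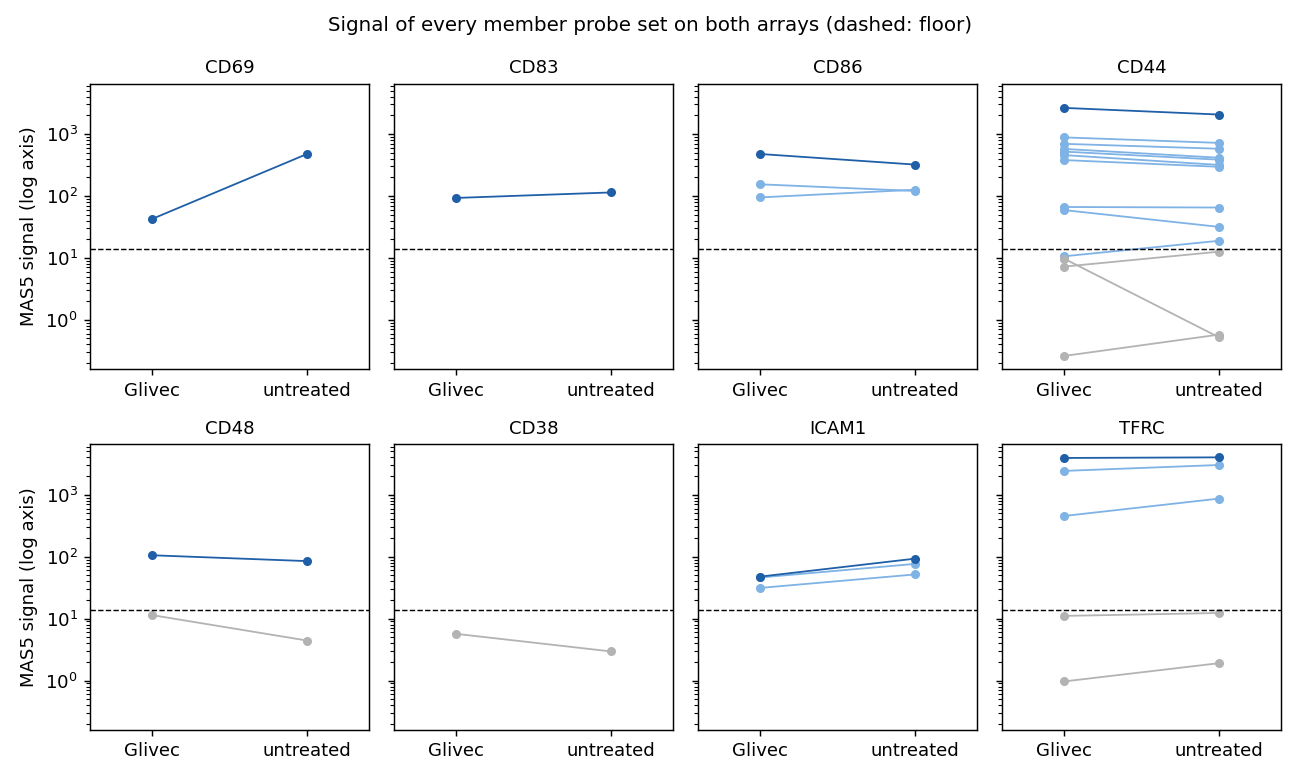
MAS5 signal (log axis) of each member probe set on the Glivec array and the untreated array, 1 line per probe set, dark blue for the representative probe set, light blue for others above the floor on an array, grey for those at the floor on both, and a dashed line at the floor of 13.7. The CD69 line joins 42.6 with Glivec and 474.5 without, the 3 ICAM1 lines slope the same way by less, and the bright CD44 lines slope the other way.

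CD69 had a signal of 42.6 in Glivec-treated cells, against 474.5 in untreated cells. Both signals were above the floor, and the ratio of -3.48 is an 11.1-fold lower signal with Glivec. Only 1 probe set on the array reads CD69 alone, so no second one could be set beside it. In a bulk sample a smaller share of cells carrying the transcript and less of it per cell cannot be told apart. Among the 10975 genes above the floor on both arrays CD69 had the lowest ratio, and among all 12705 measured genes 2 were lower, both known as bounds. The size of its ratio was 11.9 times the pooled SD between probe sets of its signal class (0.29). That multiple says nothing about cultures.

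The measured genes whose 2 signals lay nearest to those of CD69, by Euclidean distance over the 2 arrays in log2 units, were CXCL10, STON1, CISH, COA7 and GBP1. CXCL10, an interferon-induced chemokine, had signals of 59.7 with Glivec and 543 without (distance 0.52). STON1, which encodes the endocytic adaptor stonin, had 49.8 and 331 (distance 0.57), and CISH, a feedback inhibitor of cytokine receptors, had 46.7 with Glivec and 318 without (distance 0.59). COA7, a mitochondrial assembly factor, followed at a distance of 0.98 and GBP1, an interferon-induced GTPase, at 1.04. All of them had ratios of -2.15 or lower. With 2 points per gene the distance shows a like pair of signals and no more.

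ICAM1 came next to CD69, and all 3 of its probe sets were lower with Glivec. The brightest had a signal of 47.7 in Glivec-treated cells, against 92.9 in untreated cells, a 1.95-fold difference just inside the 2-fold threshold (ratio -0.96). The others had 46.2 with Glivec against 76.5 without (-0.73) and 31.3 with Glivec against 51.7 without (-0.72). The mean over the 3 was -0.80 ± 0.14 (SD over probe sets, n = 3), or 1.75-fold lower, and 2.91% of measured genes had a lower ratio than its representative. The probe sets read the same transcript from the same RNA, so they are not replicates of the treatment. ICAM1 passed the 2-fold threshold after quantile normalization (-1.05), median centring (-1.06), the loess correction (-1.14) and spike-in scaling (-1.70). With the floor at the 75th percentile of signals, above most of its values, the ratio was -0.093.

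**Figure D2:**
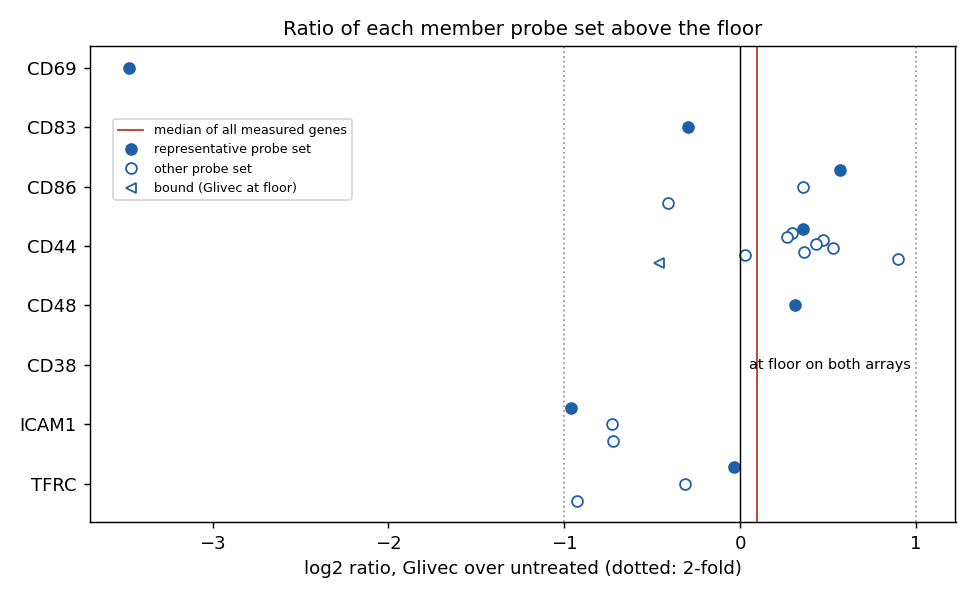
Log2 ratio, Glivec over untreated, of each member probe set that exceeded the floor on 1 or both arrays, filled for the representative probe set, open for the others, and a triangle for the CD44 probe set known as a bound. Dotted lines mark 2-fold and the red line the median of all measured genes (0.10). CD69 lies at -3.48, the ICAM1 points between -0.96 and -0.72, and 9 of 10 CD44 points above 0, most of which lie below 0 with spike-in scaling.

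The promoter sequences of ICAM1, which was lower by every probe set, and of CD44, which was higher by most, are shown to set these genes side by side. Each is the 250 bases before the RefSeq transcription start in GRCh38.p14, 5′ to 3′ on the gene's strand, and capitals mark the matches to the searched motifs. ICAM1 is shown from chr19:10270870-10271119 (plus strand) and CD44 from chr11:35138921-35139170 (plus strand).
ICAM1: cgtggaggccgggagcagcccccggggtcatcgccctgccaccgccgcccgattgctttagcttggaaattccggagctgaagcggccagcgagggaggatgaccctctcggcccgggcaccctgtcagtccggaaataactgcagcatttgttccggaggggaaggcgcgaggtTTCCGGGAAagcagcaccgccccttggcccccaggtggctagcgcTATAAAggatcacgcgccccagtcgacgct
CD44: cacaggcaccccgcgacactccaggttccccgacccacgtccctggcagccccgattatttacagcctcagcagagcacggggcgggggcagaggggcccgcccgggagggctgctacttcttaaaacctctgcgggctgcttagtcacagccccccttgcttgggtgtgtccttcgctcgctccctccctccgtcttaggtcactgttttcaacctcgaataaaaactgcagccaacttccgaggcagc
The motifs were searched on both strands: the STAT motif TTCNNNGAA, the AP-1 motif TGANTCA, the EGR motif GCGNGGGCG, the E-box CACGTG, the cyclic AMP element TGACGTCA, the TATA box TATAAA, and the NF-kB and CArG motifs. The NF-kB motif was searched in a strict form that begins with GGG and ends with CC. ICAM1 held a STAT match, TTCCGGGAA, 75 to 67 bases before the start, and a TATAAA 30 to 25 bases before it, and these do not overlap. Its window also holds tggaaattcc, which differs from the searched NF-kB form in the first base alone and so is not marked. The lack of a marked NF-kB match does not show that ICAM1 has no such site. A STAT match was present in 6.57% and a TATAAA in 10.7% of 35116 human promoter windows of this length. CD44 held none of the 8 motifs in this window, which says only that those letters are not there. The table of promoters matched 7 of the 8 genes, all but CD69, and among the 7 the STAT motif was found for ICAM1 alone and TATAAA for CD83, ICAM1 and TFRC. The TFRC match lay 33 to 28 bases before the start, near the place of that in ICAM1. Those of CD83 lay far from it, 243 to 238 bases before the start on the reverse strand and 236 to 231 on the gene's strand. A match is a description of the letters and not of a bound site.

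The beta 2 integrins that bind ICAM1 differed by less than 2-fold. ITGAL, the alpha chain of LFA-1, had a signal of 1398 with Glivec and 880 without, or 1.59-fold higher, with its other probe set at 0.87. ITGAM, the alpha chain of Mac-1, had 67.7 with Glivec and 46.0 without, and ITGB2, their shared beta chain, had 928 and 902 (ratio 0.04, with the other 2 of its 3 probe sets below 0, down to -0.13). ITGAX, the alpha chain of a further beta 2 integrin that binds ICAM1, was at the floor with Glivec (10.9) and had 15.4 without. ITGB7, the beta chain of other leukocyte integrins, had 123.6 with Glivec and 89.7 without (0.46). Of 16 ICAM, integrin and other adhesion genes 14 were measured, with 0 at least 2-fold higher, 0 lower and a median of 0.19, against 0.10 over all measured genes. ITGAD of this list had 17.2 with Glivec and was at the floor without (4.53), so its ratio of 0.33 is a bound. With the floor at the 40th percentile 1 gene of the list was at least 2-fold higher. With spike-in scaling the median of this list was -0.54.

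CD44 was higher on the Glivec array by 9 of the 10 probe sets that exceeded the floor, although by its representative it was lower with spike-in scaling (-0.38). The representative had a signal of 2641 in Glivec-treated cells, against 2063 in untreated cells, or 1.28-fold higher (ratio 0.36). The 7 probe sets with both signals above 250 spanned 1.20-fold to 1.44-fold, with a mean of 0.39 ± 0.09 (SD over probe sets, n = 7). These 7 probe sets stood close together, and the dimmer ones did not. One had 59.1 with Glivec and 31.7 without (0.90), another had 66.3 and 65.1 (0.03), and the last had 10.6 with Glivec, at the floor, and 18.9 without. The remaining 3 of its 13 probe sets were at the floor on both arrays. After the loess correction, which removes the trend of the ratio with signal, the CD44 ratio was 0.25.

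Of 12 CD44 ligands and partners 9 were measured, with 7 positive, a median of 0.37 and a median of -0.32 with spike-in scaling. HMMR, another hyaluronan receptor with a role in mitosis, had signals of 1111 with Glivec and 543 without and was 2.04-fold higher. SRGN, the granule proteoglycan serglycin, was 1.59-fold higher (9804 against 6182), with another probe set at -0.04. HAS3, a hyaluronan synthase, was 1.53-fold higher from 30.3 with Glivec and 19.8 without, and its other probe set was at -0.01. HMMR was the single gene of this list past 2-fold, and it was not past it after median centring (0.93), with spike-in scaling (0.29) or by the mean over its probe sets (0.97). The list held 0 genes at least 2-fold lower.

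TFRC was nearly level by its brightest probe set and lower by the others. That probe set had a signal of 3926 in Glivec-treated cells, against 4017 in untreated cells (ratio -0.03). Another had 2427 with Glivec against 3023 without, a ratio of -0.32, and the last had 455 against 866, which is 1.90-fold lower (-0.93). All of them were on the lower side, but they spread over 0.90 log2 units or an SD of 0.46, against 0.27 for genes of that signal class. The remaining 2 of its 5 probe sets were at the floor on both arrays. The mean over probe sets was -0.43, and the ratio was -0.77 with spike-in scaling. By the distance of their signals the genes nearest to TFRC were CCT2, SSR1 and KARS1, each within 0.06 log2 units.

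Of 16 genes of iron uptake, storage and its control 13 were measured, with 1 at least 2-fold higher, 0 lower and a median of 0.31 (-0.47 with spike-in scaling). CYBRD1, a ferric reductase, had signals of 345 with Glivec and 140 without, or 2.46-fold higher, and its other probe set was at 0.28. STEAP3, the reductase that works with TFRC in endosomes, was 1.93-fold lower (17.6 with Glivec against 34.0 without). TFR2, the second transferrin receptor, was at the floor with Glivec (10.1) and had 24.0 without, so that it was at least 1.75-fold lower, while its other probe set was at 0.21. FTL, the ferritin light chain, was higher as deposited, with 11276 with Glivec against 7529 without (ratio 0.58). SLC11A1 gave opposite answers by different probe sets. Its representative had 17.1 with Glivec against 27.6 without (ratio -0.69). Of its 3 probe sets that exceeded the floor, 1 was more than 2-fold higher, with a ratio above that of the CYBRD1 representative. By their representatives the iron genes lay on both sides of 0, with CYBRD1 alone past 2-fold as reported. STEAP3 was past it, and lower, after quantile normalization (-1.12), median centring (-1.05), the loess correction (-1.22) and spike-in scaling (-1.68), TFR2 with the floor at the 40th percentile (-1.24), and 4 iron genes were at least 2-fold lower with spike-in scaling. CYBRD1 fell short of 2-fold with spike-in scaling (0.56) and by the mean over its probe sets (0.79).

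CD86 gave opposite answers by different probe sets. The brightest had a signal of 476 in Glivec-treated cells, against 321 in untreated cells (ratio 0.57, or 1.48-fold higher). Another had 154 with Glivec against 120 without (0.36), and the last had 94.7 with Glivec against 126 without (-0.41). Their mean was 0.17 ± 0.51 (SD over probe sets, n = 3), so no direction can be given for CD86. With spike-in scaling the representative was at -0.17. CD83 was 1.23-fold lower by its only probe set, with a signal of 92.9 with Glivec and 113.9 without. Its ratio of -0.29 was smaller than the pooled SD of its signal class (0.33), though spike-in scaling put it at -1.03. THTPA, METTL4 and CLEC4A had the nearest pairs of signals to CD83, each within 0.05 log2 units.

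The relatives and partners of CD86 were mostly dim. Of 12 genes of the CD28 and B7 family and its partners 5 were measured, with 0 at least 2-fold higher, 1 lower and a median of 0.12. CD274, the ligand of PD-1, was 2.53-fold lower, with a signal of 15.1 with Glivec and 38.1 without, and its other probe set was at -0.52. With the mean of both it was at -0.93, and with the floor at the 60th percentile at -0.61. CD80, which shares its receptors with CD86, had 17.9 with Glivec and 16.4 without, and CD28 and CTLA4 were at the floor on both arrays. TNFRSF14 and CD276 had ratios of 0.73 and 0.49. Of 15 genes of MHC class II and of CD83 and CD86 turnover 14 were measured, all within 2-fold after the floor, with a median of 0.29 (-0.45 with spike-in scaling). CD74, the invariant chain, had a signal of 4122 with Glivec and 2769 without. MARCHF8, a ubiquitin ligase that acts on CD86, had 210 with Glivec and 141.2 without, and its other probe set was at 1.04. HLA-DOA was at the floor with Glivec (8.01) and had 20.2 without, so its ratio of -0.56 is a bound. With the floor at the 40th percentile 1 gene of this list was at least 2-fold lower. With only _at probe sets 1 gene of it was at least 2-fold higher.

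CD48 had a signal of 105.4 in Glivec-treated cells, against 84.9 in untreated cells, which is 1.24-fold higher as deposited (ratio 0.31) but -0.43 with spike-in scaling. Its other probe set was at the floor on both arrays. The ratio was smaller than the pooled SD of its signal class (0.33). Its receptor CD244 had 148 with Glivec and 87.2 without (1.70-fold higher), and CD2 was at the floor on both arrays. Of 11 genes of the SLAM family, its partners and CD2, 8 were measured, with 1 at least 2-fold higher, 0 lower and a median of 0.19. CD84, a SLAM receptor that binds itself, was 2.22-fold higher, with a signal of 417 with Glivec and 188 without, and all 7 of its probe sets that exceeded the floor were higher (0.50 to 1.25). Their mean was 0.88, and the CD84 ratio was 0.41 with spike-in scaling. SLAMF1 was at the floor with Glivec (11.1) and had 24.6 without, so its ratio of -0.85 is a bound. With the floor at the 40th percentile 1 gene of this list was at least 2-fold lower.

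CD38 was at the floor on both arrays, with signals of 5.68 with Glivec and 2.96 without, so it has no ratio. Of 15 genes of NAD and ADP-ribose metabolism 11 were measured, all within 2-fold after the floor, with a median of 0.14. BST1, the relative of CD38 with the same enzyme activity, had 35.0 with Glivec and 28.4 without. NMNAT1 and NAPRT, which make NAD, had ratios of 0.97 and 0.71, and NAMPT, which recycles nicotinamide, was at -0.54 with 4 probe sets from -0.71 to -0.32. Most of the NAD genes were thus measured in cells where the CD38 probe set was not above the floor.

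**Figure D3:**
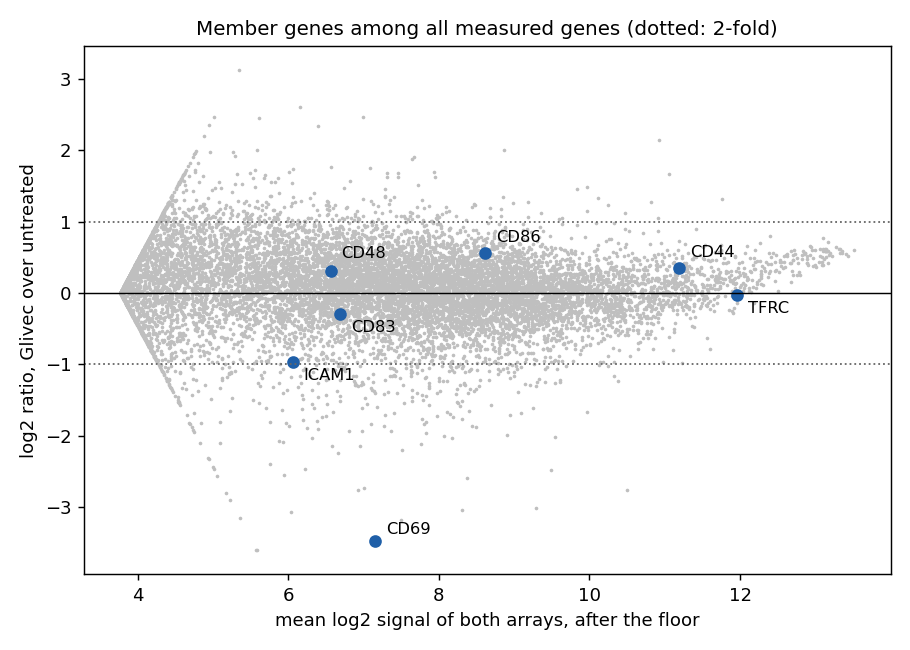
Log2 ratio, Glivec over untreated, against the mean log2 signal of both arrays after the floor, 1 grey point per measured gene (12705) and blue points for the 7 measured members. Dotted lines mark 2-fold. CD69 lies at -3.48 below the other members, ICAM1 at -0.96 next to the lower line, and the other members between -0.29 and 0.57.

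The 7 measured C-type lectin-like genes of the NK gene complex, where CD69 lies, were all within 2-fold after the floor, from -0.51 to 0.21. Their median was -0.24 (-0.81 with spike-in scaling, and 0.11 with only _at probe sets). CLEC2B, a close relative of CD69, had a signal of 1400 with Glivec and 1654 without, and its probe sets were at -0.24 and -0.25. CLEC7A, the beta-glucan receptor dectin-1, had 151 with Glivec and 200.2 without, with 1 of 4 probe sets on the other side of 0. KLRF1 was at the floor with Glivec (8.18) and had 19.5 without, so its ratio of -0.51 is a bound. With the floor at the 40th percentile 1 gene of this list was at least 2-fold lower.

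Other activation antigens did not share the ratio of CD69. Of 26 listed genes 18 were measured, with 2 at least 2-fold higher, 1 lower and a median of 0.14. IL2RA, the alpha chain of the interleukin 2 receptor, had a signal of 37.9 with Glivec and 90.5 without, or 2.39-fold lower, and its other probe set was at -2.21. TNFRSF8 (CD30) was 2.06-fold higher from 34.6 with Glivec and 16.8 without, and the tetraspanin CD9 was at 2-fold with 78.3 and 39.1. Neither of these 2 was past 2-fold after quantile normalization (0.88 and 0.90), median centring (0.95 and 0.90), the loess correction (0.78 and 0.80) or spike-in scaling (0.31 and 0.26), and IL2RA was lower by 2-fold or more in each of these, but at -0.054 with the floor at the 75th percentile. Of 22 other leukocyte surface antigens 18 were measured, all within 2-fold, with a median of 0.03. CD37, ADGRE5 and PTPRC had ratios of 0.98, 0.57 and 0.39. Over all 10 lists, 115 of 158 distinct genes were measured, and 4.35% were at least 2-fold higher and 1.74% lower, beside 3.13% and 2.63% of all measured genes. The lists share some genes and were written with earlier results of these arrays known.

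**Figure D4:**
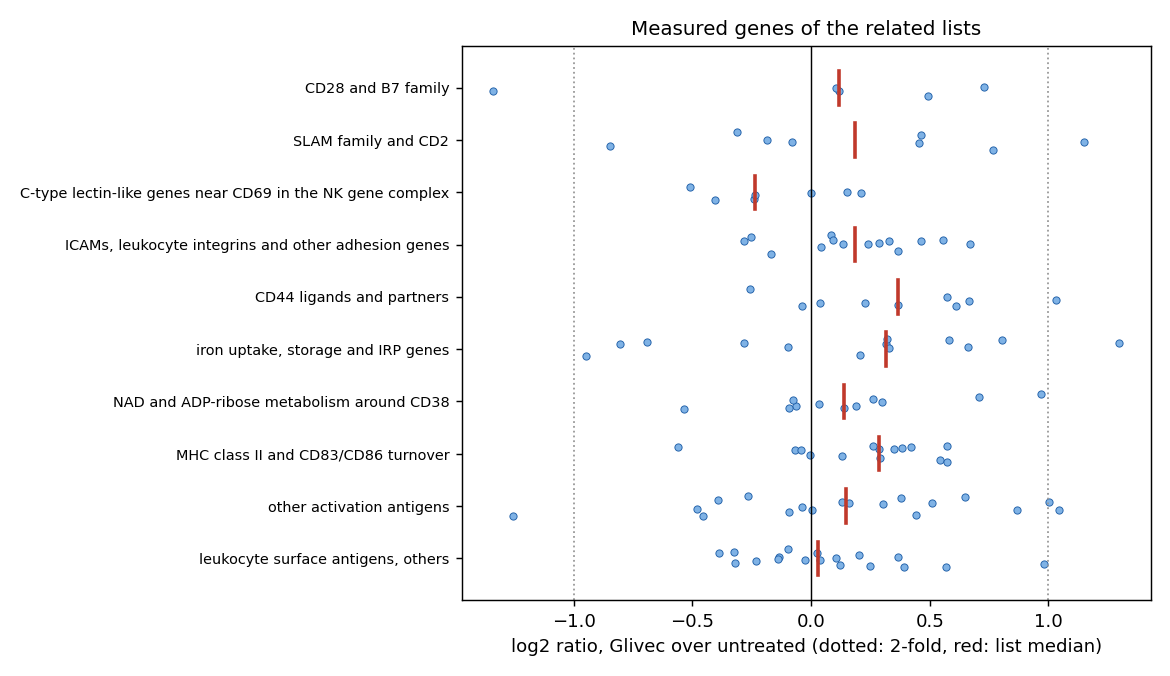
Log2 ratio, Glivec over untreated, of each measured gene in the 10 related lists (points, spread vertically for legibility), with the list median as a red bar and dotted lines at 2-fold. The medians run from -0.24 for the C-type lectin-like genes to 0.37 for CD44 ligands and partners, and all 10 are below 0 with spike-in scaling.

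The labelled cell line was set against marker genes of blood cells, without replicates. Of 8 eosinophil markers with a probe set 4 were measured. The granule genes PRG2 (6302 with Glivec, 4744 without) and RNASE2 (2872 and 2146) exceeded the floor with and without Glivec, EPX only with Glivec (27.2 against 12.6) and CLC only without it (13.2 against 19.4), while IL5RA, SIGLEC8, PRG3 and GATA1 were at the floor on both arrays. Markers of lymphocytes, the cells in which CD69 is best known, were in part at the floor on both arrays by their representative probe sets. These were 6 of 8 T cell markers, 2 of 5 B cell markers and 3 of 6 NK cell markers. CD3D, CD3G, LCK, PAX5 and GNLY were among them. The T cell marker CD4, the B cell markers CD79A and CD79B and the NK cell markers NKG7 and PRF1 exceeded the floor on both arrays. CD3E and KLRD1 exceeded it only without Glivec, and CD22 only with Glivec. The summed signals were 575 with Glivec and 422 without for the T cell list, which is nearly all CD4, 164 and 140.2 for B cells, and 748 and 899 for NK cells, nearly all NKG7. Of 7 monocyte and dendritic cell markers 6 were above the floor on both arrays, and 2 of 5 erythroid and megakaryocyte markers were. Summed over all markers with a probe set, the monocyte and dendritic cell signals were 756 with Glivec and 766 without. The erythroid and megakaryocyte signals summed to 82.8 and 44.2. Of these, HBB had 30.5 with Glivec and was at the floor without (6.93), so its ratio of 1.15 is a bound. Among the 3 HBB probe sets that exceeded the floor, 1 was on the other side of 0. The part of these markers in the member ratios was not tested.

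Hybridisation controls are transcripts added to each hybridisation mix in equal amount under the usual protocol. Their 18 probe sets had a median ratio of 0.74, so that they were 1.67-fold brighter with Glivec. The cause of that difference was not tested. Once the arrays were scaled to these controls the median of all measured genes was -0.59, against 0.10 as deposited. The ratios reported here use the deposited scale and are not centred on the bulk of genes, so the sign of a small ratio depends on the scaling. CD69, CD83, ICAM1 and TFRC were below 0 under all settings that gave a value, while CD44 and CD48 were above 0 except with spike-in scaling, and CD86 was above 0 except there and with only _at probe sets.

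**Figure D5:**
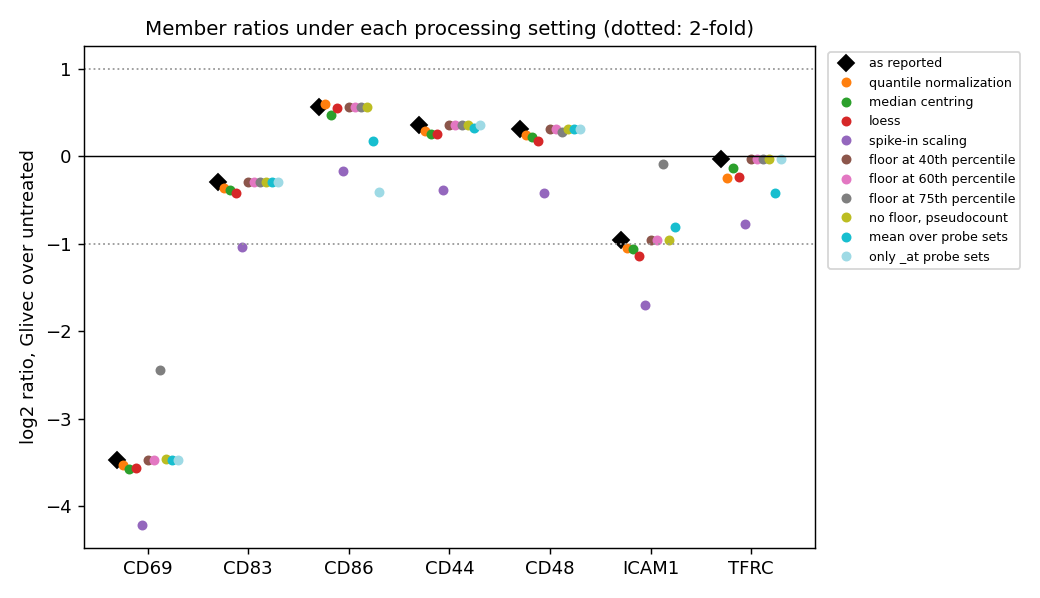
Log2 ratio, Glivec over untreated, of the 7 measured members as reported (black diamonds) and under 10 other processing settings (coloured points), with dotted lines at 2-fold. CD69 stays between -4.21 and -2.44, ICAM1 between -1.70 and -0.093, and CD86, CD44 and CD48 lie on both sides of 0, the last 2 only through spike-in scaling.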

How the data were processed

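RNA from 1 Glivec-treated and 1 untreated EOL-1 culture was measured on 1 array each. The deposited intensities are MAS5 signals, per the submitters' processing notes (version not given in the sources). The trimmed mean signal (2% removed at each end) was 100.014 for Glivec and for untreated, which puts both on a common scale. Detection calls were not used here.

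Gene symbols are those of an older annotation of the platform, in which 41097 of 42898 listed probe sets had 1 symbol and 1801 had several and named no gene. The other 11777 probe sets on the arrays are unnamed here. Entrez identifiers matched 41043 to the RefSeq gene table of GRCh38.p14, which changed 0 symbols. Promoters are from RefSeq (GRCh38.p14). No genome build goes with the signals.

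Signals below the floor (the 50th percentile of non-control signals) were set to the floor, then log2 was taken, and a ratio with 1 array at the floor is a bound. The representative of a gene was its probe set of highest mean signal, with _x_at probe sets used only where no other was present. A gene could thus count as unmeasured although other probe sets of it exceeded the floor, as with HFE, HLA-DQB1 and SPN. No test between groups was run. The calculation was tested on simulated data, with changes planted only in genes well above the floor and noise smaller than the spread between probe sets. That run checked the arithmetic and says nothing about dim genes or the variation between cultures. The members, lists and settings were chosen with earlier results of these data known. Named genes were the 8 members, the 3 measured genes of largest ratio in each list, the nearest genes to CD69, CD83 and TFRC, and a set of receptors and partners named whatever their values. FTH1 of that set, with no probe set of its own, is not analysed here. Marker genes were named too, as were HFE, SLC11A1, ITGAD, HLA-DQB1 and SPN for the limits of their probe sets.

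Alternatives were quantile normalization, median centring, loess (span 0.3), spike-in scaling, other floors (40th, 60th or 75th percentile), a pseudocount of 0.646 with no floor, averaging a gene's probe sets, restriction to _at probe sets, and thresholds of 1.5-fold and 3-fold. Python 3.11.15 was used with numpy 2.4.6, pandas 2.3.3, scipy 1.17.1, statsmodels 0.14.6 and matplotlib 3.10.9.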

Additional observations from a re-analysis of the deposited data

How the results depend on the processing

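No paired analysis was possible because there was 1 array in each group, which also left no replicate to leave out. Values given here differed from those reported by over 0.33, the pooled SD among probe sets, or counts by over 1.5 times, and the cause was not tested unless the setting's construction shows it. Ratios of dim genes are limited by the floor. With spike-in scaling all member ratios moved: CD69 was -4.21, CD83 -1.03, CD86 -0.17, CD44 -0.38, CD48 -0.43, ICAM1 -1.70 and TFRC -0.77, with a member median of -0.77, and 3 members were at least 2-fold lower, as were 2484 genes, with 43 higher. The list medians there were -0.62 for the CD28 and B7 family, -0.27 for the SLAM family, -0.81 for C-type lectin-like genes, -0.54 for adhesion genes, -0.32 for CD44 partners, -0.47 for iron genes, -0.51 for NAD genes, -0.45 for MHC class II, -0.47 for other activation antigens and -0.71 for other surface antigens. Quantile normalization, median centring, loess and the 1.5-fold threshold each gave 2 members lower, CD69 and ICAM1. The floor at the 75th percentile put CD69 at -2.44, then a bound, ICAM1 at -0.093 and the SLAM median at 0.77, over fewer genes. The 2 other activation antigens past 2-fold higher were 0 after quantile normalization, median centring, loess, spike-in scaling and the floor at the 75th percentile, and 1 iron gene was 2-fold lower after the first 3 of these. The mean over probe sets put CD86 at 0.17 and TFRC at -0.43. With only _at probe sets CD86 was -0.41, the CD28 and B7 median -0.32 and the C-type lectin-like median 0.11, and ICAM1 had no value.

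The counts of all genes at least 2-fold higher and lower were 207 higher after loess, 735 higher with the floor at the 40th percentile, 234 higher at the 60th, 91 and 176 at the 75th, 2408 and 1848 with the pseudocount, where genes below the floor also count, 1711 and 1058 at 1.5-fold, and 56 and 86 at 3-fold.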
